A study of Mus musculus with 5 samples.

Results

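The genes followed here move water, bicarbonate and chloride into pancreatic juice, and they were compared between pancreata of newborn mice with and without Pdx1 in exocrine cells. The 10 genes were chosen by name, as the probe sets whose gene symbol on the array is Aqp8, Aqp12, Aqp1, Aqp5, Cftr, Car2, Slc4a4, Slc26a6, Slc26a3 or Slc12a2, and all 10 were measured, each by 1 probe set, among 19938 genes in all. Aqp8 and Aqp12 are the aquaporins of acinar cells, and the other 8 are described here as duct members. Pancreata came from 3 Pdx1cKO mice at postnatal day 1, in which the Elastase-Cre transgene recombines a loxP-flanked Pdx1 gene (Elastase-Cre;Pdx1 loxP/loxP), and from 2 control mice of the same age and litter, labelled as not recombined. The alleles that the controls carry are not given beyond that label. Elastase-Cre acts in exocrine tissue and, by the study's account, does not recombine the proximal ducts. Whole-organ RNA of each mouse was read on an array of its own (Mouse Gene 1.0 ST), and the values below are the deposited linear intensities, which have no unit and can be compared between arrays but not between genes.

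Pancreatic juice is made in steps. Acinar cells release digestive enzymes in a small volume of chloride-rich fluid, and duct cells then add most of the water and nearly all of the bicarbonate, with secretin as the main hormonal signal. In duct cells carbonic anhydrase makes bicarbonate from carbon dioxide, a sodium bicarbonate cotransporter brings more in from the blood side, and the chloride channel Cftr together with chloride and bicarbonate exchangers of the SLC26 family releases it into the lumen, where water follows through aquaporins. Most of these genes are also used outside the pancreas, in erythroid cells, blood vessels, liver, stomach and gut.

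The promoters of the acinar pair are shown first, because Aqp12 gave the largest difference of the 10 and Aqp8 did not share it. PTF1, the transcription factor complex of acinar cells, is known to bind an E-box (CANNTG) close to a second element that holds the letters TGGGAA or their reverse complement. Both were searched on both strands in the 250 bases before each transcript start, from the RefSeq table of GRCm38.p6. Promoters of 8 of the 10 genes were read, and Car2 and Slc12a2 were not among them. A chromosome was left out when the promoters of the 10 genes were taken, but not from the windows counted over all genes below. Capitals mark every match.
Aqp12, chr1:93006084-93006333, plus strand: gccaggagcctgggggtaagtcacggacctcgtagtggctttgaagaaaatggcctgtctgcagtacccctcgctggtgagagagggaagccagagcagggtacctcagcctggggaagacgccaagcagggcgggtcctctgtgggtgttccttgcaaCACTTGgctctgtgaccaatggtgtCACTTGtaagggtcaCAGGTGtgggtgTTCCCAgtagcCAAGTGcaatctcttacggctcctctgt
Aqp8, chr7:123462044-123462293, plus strand: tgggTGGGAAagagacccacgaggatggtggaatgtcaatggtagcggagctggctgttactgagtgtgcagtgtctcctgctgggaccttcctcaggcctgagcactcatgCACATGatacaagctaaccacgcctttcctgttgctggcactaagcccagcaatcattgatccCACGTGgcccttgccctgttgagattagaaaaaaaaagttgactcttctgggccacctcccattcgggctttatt
The Aqp12 window held 4 E-boxes and 1 TGGGAA match, which began 39 bases before the start and lay 6 bases after one E-box and 5 bases before the next. The Aqp8 window held 2 E-boxes and 1 TGGGAA match, which were 102 bases apart at the closest. Of 32851 promoter windows in the table, 66.2% held an E-box, 21.6% a TGGGAA match and 14.8% both. An E-box and a TGGGAA match that did not overlap and were at most 6 bases apart were found in 1.64% of windows, and 2 or more such pairs in 0.0548%, the distance being chosen after the Aqp12 sequence was seen. A match describes letters and not a bound site.

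The arrays differed in transcripts of other tissues, and these values bear on several of the 10 genes. The targeted gene Pdx1 was at 48.4, 48.4 and 42.9 in Pdx1cKO mice 1, 2 and 3, against 67.9 and 112.7 in controls 1 and 2 (log2 fold change -0.91, with a standard error of 0.255 and an adjusted p of 0.385 by limma). Acinar markers were measured in every array (8 of 10 listed genes), and their summed intensity was 10134, 11827 and 16173 in Pdx1cKO mice 1, 2 and 3 and 44931 and 34583 in controls 1 and 2. The sum of 10 duct markers was 3566 to 3920 in Pdx1cKO and 6156 and 9905 in controls 1 and 2. Of these, the keratins Krt8 and Krt19 were at 943 and 949 in control 1 and at 3172 and 2516 in control 2. The part of other tissues in them was not tested. Stomach markers (11 genes) summed to 736 to 952 in Pdx1cKO, against 536 in control 1 and 18477 in control 2, which stood out. Liver markers (10 genes) summed to 29105, 34238 and 12848 in Pdx1cKO mice 1, 2 and 3, against 3739 and 4331 in controls, and 5 erythroid markers to 855, 1240 and 538, against 334 and 272. Granulocyte markers (9 genes) summed to 2508, 3606 and 1334, against 447 and 458. Xist was at 622.0 and 348.7 in Pdx1cKO mice 1 and 2 and at 33.5 to 53.4 in the other 3 mice, so sex and genotype were not balanced. In whole-organ RNA, fewer cells of a type and less RNA per cell cannot be told apart.

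Aqp12, an aquaporin largely restricted to acinar cells and held on membranes inside them, was the member with the clearest difference. Its intensity was 63.5, 47.8 and 92.0 in Pdx1cKO mice 1, 2 and 3, against 1183 and 259 in controls 1 and 2. All 3 Pdx1cKO values lay below both controls, and the controls themselves were 4.56-fold apart. The geometric mean was 8.47-fold lower in Pdx1cKO, which is -3.08 on the log2 scale (standard error 0.803; 95% confidence interval -5.39 to -0.78; n = 3 and 2), and only 19 of the 19938 genes had a more negative one. Over all genes the limma adjusted p was 0.361 (unadjusted p = 0.0215), which does not pass the threshold of 0.05. Without control 2 the log2 fold change was -4.18, and without control 1 it was -1.99. A fit with 1 control takes its spread from the Pdx1cKO mice alone, so its p-values are not given for single genes.

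Aqp12 and the acinar markers shared the direction between the groups and the higher control, control 1. The order of Pdx1cKO mice 1 and 2 differed, and the controls were farther apart for Aqp12. Taken as log2 intensity minus the mean of the 5 arrays, Aqp12 stood at -1.28, -1.68 and -0.74 in Pdx1cKO mice 1, 2 and 3 and at 2.94 and 0.76 in controls 1 and 2, while the median of the 8 acinar markers stood at -0.82, -0.70 and -0.27 in Pdx1cKO and at 1.16 and 0.67 in controls. Relative to that median within each array, Aqp12 differed by -1.57 on the log2 scale between Pdx1cKO and controls, but at -0.46, -0.99 and -0.47 the Pdx1cKO mice then lay closer to control 2, at 0.08, than control 1 did, at 1.79. This difference was not tested. Some of the enzymes in the acinar list were near the top of the array's range in controls (Ctrb1, a chymotrypsinogen, at 12080 and 11366, with the brightest probe set of those arrays at 15581 and 14856), where an array can understate a change.

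The genes whose values over the 5 arrays were most like those of Aqp12 were Pla2g1b, Try4 and Cuzd1. The likeness was the mean absolute difference of log2 intensities after centring each gene, at 0.191, 0.246 and 0.286. Pla2g1b, the phospholipase of pancreatic juice, had intensities of 116, 114 and 136 in Pdx1cKO mice 1, 2 and 3 and 2393 and 446 in controls, -3.09 on the log2 scale. Try4, a trypsinogen whose probes may also read close paralogs, was at -3.06, and Cuzd1, a protein of zymogen granules, at -2.77. For all 4 genes control 1 was the highest array and control 2 the next.

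Aqp8, the water channel of the acinar apical membrane that is also made by hepatocytes and colon, did not separate the groups. It was at 54.5, 394.9 and 89.8 in Pdx1cKO mice 1, 2 and 3, against 193 and 52.1 in controls 1 and 2. The highest value of all came from Pdx1cKO mouse 2 and the lowest from control 2, with a 7.58-fold range over the 5 arrays. Between the groups it differed by 0.31 on the log2 scale (95% confidence interval -3.09 to 3.72, standard error 1.185, limma adjusted p = 0.920), a value that turned negative without Pdx1cKO mouse 2 (-0.52) and without control 2 (-0.63). Between the controls Aqp8 was 3.70-fold higher in control 1, the same direction as Aqp12. Pdx1cKO mouse 2 also had the highest liver sum, and Pdx1cKO mouse 1, with the next highest, had low Aqp8. The part of liver transcripts in the Aqp8 values was not tested.
The nearest profiles to Aqp8 were those of Ces1d, a carboxylesterase, Cyp2c23, a cytochrome P450, and Errfi1, an inhibitor of the EGF receptor, at mean absolute log2 differences of 0.435, 0.500 and 0.578, farther than the neighbours of Aqp12. Cyp2c23 was likewise highest in Pdx1cKO mouse 2, at 407, against 46.3 and 63.8 in Pdx1cKO mice 1 and 3 and 67.3 and 63.8 in controls.

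**Figure D1:**
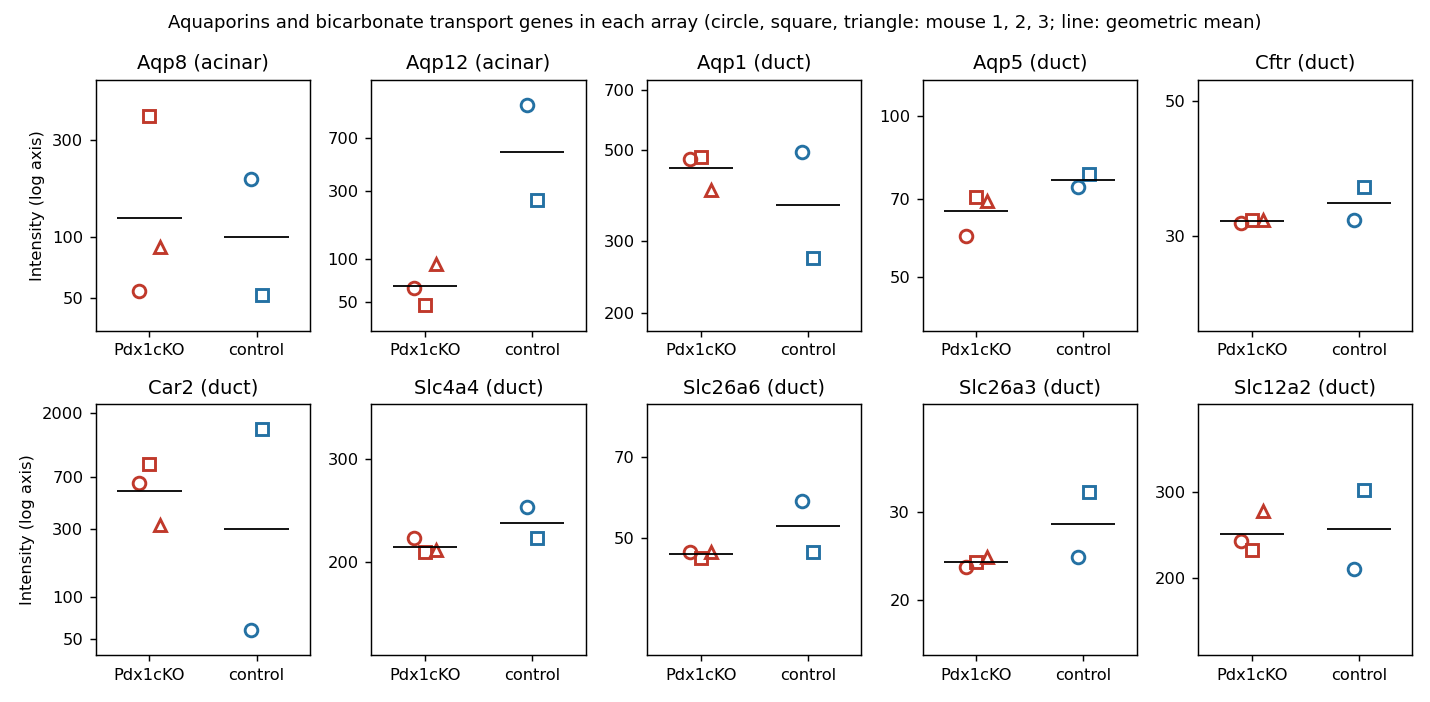
Intensity of each of the 10 genes on log axes that differ between panels, for 3 Pdx1cKO mice (red) and 2 control mice (blue), with symbols for mice 1, 2 and 3 and lines for geometric means. Aqp12 separates the groups with 47.8 to 92.0 in Pdx1cKO and 259 and 1183 in controls, whereas Aqp8 and Car2 vary as much within the groups as between them.

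Aqp1, the water channel of the intercalated ducts and also of capillary endothelium, mesothelium and red cells, was alike in 4 of the 5 mice. It was at 475, 482 and 399.7 in Pdx1cKO mice 1, 2 and 3, against 494 and 272 in controls 1 and 2. Control 2 alone was low, and the groups overlapped. Its log2 fold change was 0.30 (95% confidence interval -0.58 to 1.18, limma adjusted p = 0.627), and it was -0.13 without control 2. The endothelial markers also had their lowest sum in that array, at 2001 to 2370 in Pdx1cKO, against 1964 in control 1 and 1456 in control 2. So did the mesothelial markers, at 3766 to 4890 in Pdx1cKO, against 6441 in control 1 and 3189 in control 2. Relative to the median of the 7 endothelial markers, Aqp1 differed by -0.02 on the log2 scale between Pdx1cKO and controls (SD 0.312 and 0.331), and relative to the median of the 5 mesothelial markers by 0.32 (SD 0.333 and 0.145). How much of the Aqp1 signal came from ducts was not tested.

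Aqp5, an apical water channel of gland and duct cells, was the other member whose groups did not overlap, at a small difference. Its intensity was 59.5, 70.5 and 69.2 in Pdx1cKO mice 1, 2 and 3, against 73.7 and 77.8 in controls 1 and 2. Its log2 fold change was -0.19 (95% confidence interval -0.46 to 0.08, limma adjusted p = 0.515). These values are close to the median of all probe sets, which was 61.0 to 61.9, and without detection calls such a level cannot be set against background. Taking the 10 members together, 2 had every Pdx1cKO value below both controls and none had every Pdx1cKO value above both, where 11.7% and 12.0% of all genes did so in each direction. One of the 10, Aqp12, was lower at an unadjusted p under 0.05, beside 5.04% of all genes, and none was higher, beside 5.29%. Over all genes 0% passed in either direction after adjustment, and so did 0 of the 10.

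Car2, the cytosolic carbonic anhydrase that supplies bicarbonate in duct cells and is abundant in red cells and in the acid-secreting cells of the stomach, had the widest range of the 10. It was at 631, 868 and 319 in Pdx1cKO mice 1, 2 and 3, against 58.1 and 1531 in controls 1 and 2. The controls were the lowest and the highest of the 5 arrays, 26.3-fold apart, and the Pdx1cKO mice lay between them. On the log2 scale the groups differed by 0.91 (95% confidence interval -3.88 to 5.69, limma adjusted p = 0.785), a value of 3.27 when control 2 was left out and of -1.45 when control 1 was. The array with the highest Car2, control 2, held the stomach transcripts. Among the Pdx1cKO mice Car2 was highest in mouse 2 and lowest in mouse 3, an order shared by the erythroid, liver and granulocyte sums. Relative to the median of the 5 erythroid markers, Car2 was at -0.08, -0.17 and -0.42 on the log2 scale in Pdx1cKO mice 1, 2 and 3, against -2.13 and 2.90 in controls. Relative to the median of the 11 stomach markers it was at 1.21, 1.69 and 0.35 in Pdx1cKO mice 1, 2 and 3, against -1.69 and -1.65 in controls. Outside control 2, several of these markers lay near or under the lower quartile of all probe sets. Gkn2 was at 25.1 to 26.4 there and Anxa10 at 27.5 to 32.0, while Ctse was at 75.5 to 408. For that reason this scale cannot rank the stomach content of the arrays other than control 2. The part of stomach and erythroid transcripts in the Car2 values was not tested.

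**Figure D2:**
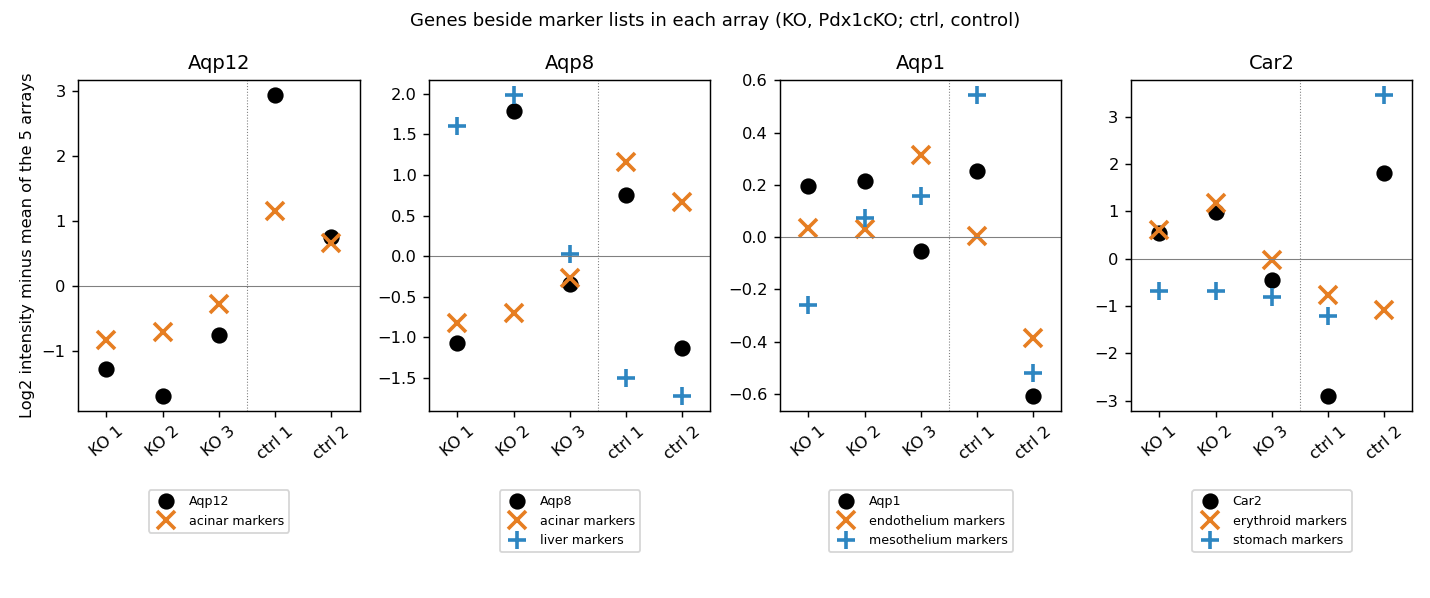
Log2 intensity minus the mean of the 5 arrays for Aqp12, Aqp8, Aqp1 and Car2 (black), and the median of the same quantity over the markers of named cell types or tissues (coloured crosses), in each Pdx1cKO and control array. Aqp12 and the acinar markers lie below 0 in all 3 Pdx1cKO mice and above 0 in both controls, and Car2 reaches 1.82 in control 2, where stomach markers stand at 3.47.

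Cftr, the apical chloride and bicarbonate channel of duct cells that secretin opens through cyclic AMP, had intensities near the lower quartile of all probe sets. It was at 31.5, 31.9 and 31.9 in Pdx1cKO mice 1, 2 and 3, against 31.9 and 36.1 in controls 1 and 2, and the lower quartile of all probe sets was 31.2 to 31.9. The values of Pdx1cKO mice 2 and 3 and control 1 were identical, and such exact ties between arrays occurred in 67.7% of probe sets. Its log2 fold change was -0.10 (95% confidence interval -0.27 to 0.08, limma adjusted p = 0.515). Without control 1 it was -0.18, which rests on control 2 against 3 nearly equal values, and without control 2 it was -0.007. Without detection calls this level cannot be set against background, and a difference in Cftr may not be detectable. The nearest profiles of Cftr are not informative, since 2002 other genes lay within 0.05 of it, the closest being Olfr119, Scn1a and Wdr75, at 0.001 to 0.003.

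The basolateral members of the duct cell had narrow ranges. Slc4a4, the electrogenic sodium bicarbonate cotransporter, was at 219.8, 208 and 209.5 in Pdx1cKO mice 1, 2 and 3, against 248 and 219.8 in controls 1 and 2. Pdx1cKO mouse 1 equalled control 2, and the log2 fold change was -0.14 (95% confidence interval -0.32 to 0.05, limma adjusted p = 0.515). Slc12a2, the sodium, potassium and chloride cotransporter that loads secretory cells with chloride, was at 238, 228 and 275 in Pdx1cKO mice 1, 2 and 3, between the controls at 209 and 303. Its log2 fold change of -0.03 (95% confidence interval -0.62 to 0.55, limma adjusted p = 0.970) was 0.24 without control 2 and 0.02 without Pdx1cKO mouse 2. The interval of Slc4a4 was narrower than that of Slc12a2, whose controls differed 1.45-fold. Slc4a4 holds an exact tie and Slc12a2 does not, and the part of such ties in the widths was not tested.

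The luminal exchangers had intensities under the median of all probe sets. Slc26a6, an exchanger of chloride for bicarbonate on the duct cell's luminal membrane, was at 47.1, 45.9 and 47.1 in Pdx1cKO mice 1, 2 and 3, against 58.2 and 47.1 in controls 1 and 2, so that control 1 alone was higher. The log2 fold change was -0.17 (95% confidence interval -0.46 to 0.13, limma adjusted p = 0.515). Without control 2 it was -0.32, and without control 1 it was -0.013. Slc26a3, an exchanger best known from the colon, was at 23.2, 23.9 and 24.4 in Pdx1cKO mice 1, 2 and 3, against 24.4 and 33.0 in controls 1 and 2, all but the last under the lower quartile of probe sets. Control 2, the one array above the rest, also had the highest sum of 10 intestinal markers, which was 507 to 950 in Pdx1cKO, against 573 in control 1 and 4745 in control 2. The log2 fold change of Slc26a3 was -0.25 (95% confidence interval -0.68 to 0.17, limma adjusted p = 0.515). Without control 1 it was -0.47, and without control 2 it was -0.035. The part of intestinal transcripts in it was not tested.

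Taken by cell type, the acinar pair had log2 fold changes of -3.08 and 0.31, with a median of -1.39. The 8 duct members ran from -0.25 to 0.91 with a median of -0.12, and the median of all genes was -0.001. On average 6 of the 8 duct members were lower in Pdx1cKO, beside 10442 of all 19938 genes, and 7 of the 8 overlapped between the groups, beside 15213 of all genes. The median of 10 duct markers was -0.73, with 8 of the 10 lower in every Pdx1cKO mouse than in both controls, beside 11.7% of all genes. Among these were Muc1, a mucin of duct and acinar surfaces, and Sox9, the duct and progenitor transcription factor. Krt8, Krt19 and Epcam were also among them, with control 2 as the higher control. In the rest of the 8 control 1 was the higher.

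**Figure D3:**
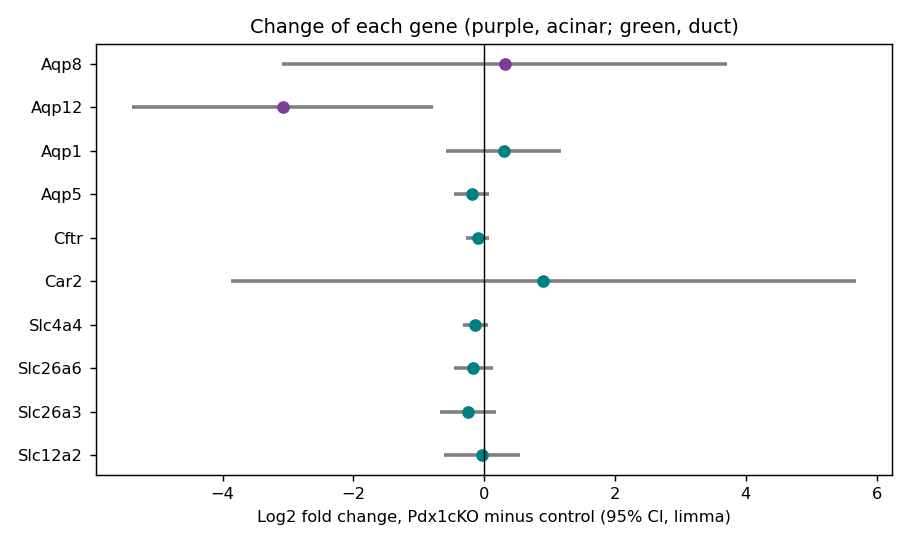
Log2 fold change of each of the 10 genes, Pdx1cKO minus control (points; purple, acinar members; green, duct members), with the 95% confidence interval from limma (grey lines). Only the interval of Aqp12, -5.39 to -0.78, lies wholly on one side of 0.

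The other genes of the same families and of duct secretion were read from lists of names. Of 8 other aquaporins, 15 other carbonic anhydrases, 8 other SLC4 genes, 9 other SLC26 genes, 7 other SLC12 genes and 20 genes of secretin signalling, channels and pumps that were measured, 0 passed over all genes in either direction. At an unadjusted p under 0.05, 1 carbonic anhydrase and 1 SLC26 gene were lower, and 1 carbonic anhydrase, 2 SLC4 genes and 1 SLC12 gene were higher, beside 5.04% of all genes lower and 5.29% higher, which is close to these counts. The medians of the 6 lists lay between -0.13 and 0.02, beside -0.001 for all genes.

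Several of these genes separated the groups, some at larger differences than the duct members. In the 6 lists in the order above, every Pdx1cKO value lay below both controls for 1, 1, 0, 1, 1 and 2 genes. For 1, 4, 2, 1, 1 and 1 genes every value lay above both. Among all genes 11.7% lay below and 12.0% above, so separation alone does not set these lists apart. Slc26a9, a chloride channel and exchanger of stomach and airway, was at 72.7, 64.7 and 86.2 in Pdx1cKO mice 1, 2 and 3, against 245 and 701 in controls 1 and 2, a log2 difference of -2.48 (limma adjusted p = 0.300, standard error 0.530). Its higher control was control 2, with the stomach transcripts. Every Pdx1cKO mouse was also below control 1. The log2 difference was -3.24 without control 1 and -1.73 without control 2, and the part of stomach transcripts in it was not tested. Slc4a1, the chloride and bicarbonate exchanger of red cells, was at 1067, 1580 and 411 in Pdx1cKO mice 1, 2 and 3, against 92.8 and 148 in controls (log2 fold change 2.92, limma adjusted p = 0.342, standard error 0.709). It had the order of the erythroid sum in the Pdx1cKO mice, which the liver and granulocyte sums shared. Aqp9, a liver channel for water and glycerol, was at 90.5, 151 and 59.2 in Pdx1cKO mice 1, 2 and 3, against 40.6 and 36.6 in controls (log2 fold change 1.27, limma adjusted p = 0.506). Again mouse 2 was highest and mouse 3 lowest, as in the liver, erythroid and granulocyte sums.
Slc12a8, a member of the cation and chloride cotransporter family, was lower in all 3 Pdx1cKO mice, at 84.4, 81.5 and 91.1, against 268 and 118 in controls 1 and 2 (log2 fold change -1.05, limma adjusted p = 0.515). On the log2 scale Slc12a8 differed by -0.46 when control 1 was left out and by -1.65 when control 2 was. Kcnq1, a potassium channel subunit of secretory epithelia, was at 123, 121 and 107 in Pdx1cKO and at 262 and 147 in controls (log2 fold change -0.75, limma adjusted p = 0.515). The log2 fold change of Kcnq1 was -0.34 without control 1 and -1.17 without control 2. Both were highest in control 1, the array with the highest acinar sum, as was Aqp12.

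Car5b and Slc12a4 differed by less, with narrow ranges in both groups. Car5b, a mitochondrial carbonic anhydrase, was at 50.0, 49.9 and 52.0 in Pdx1cKO against 65.3 and 63.1 in controls, -0.34 on the log2 scale (limma adjusted p = 0.183). Slc12a4, a potassium and chloride cotransporter of most cells, was at 162, 162 and 159 in Pdx1cKO against 144 and 141 in controls (log2 fold change 0.18, limma adjusted p = 0.183). Without control 1 and without control 2, Car5b was at -0.32 and -0.37 on the log2 scale and Slc12a4 at 0.19 and 0.16. The remaining genes with the smallest p in their lists were Car3 at a log2 fold change of 1.10, Car9 at 0.18, Aqp4 at -0.15, Aqp2 at -0.12, Slc4a8 at 0.10, Slc4a2 at -0.02, Slc26a1 at 0.32, Slc26a7 at 0.20, Slc12a7 at -0.38, Ezr at -0.48 and Wnk1 at 0.18, with limma adjusted p values of 0.404 to 0.530. Of these, Slc26a7 was at 0.028 and 0.366, Slc4a2 at 0.0 and -0.049 and Wnk1 at 0.277 and 0.089 without control 1 and without control 2. In these fits 3 equal or nearly equal Pdx1cKO values were set against 1 control. Aqp3 and Slc9a2, named here after their values were seen, had log2 fold changes of -1.18 and -1.29 that came from control 2 alone, at 281 and 205, against 59.6 and 38.0 in control 1. Sctr, the secretin receptor of duct cells, was at 74.4 in each Pdx1cKO mouse and at 93.4 and 71.4 in controls, and was also chosen after its values were seen.

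**Figure D4:**
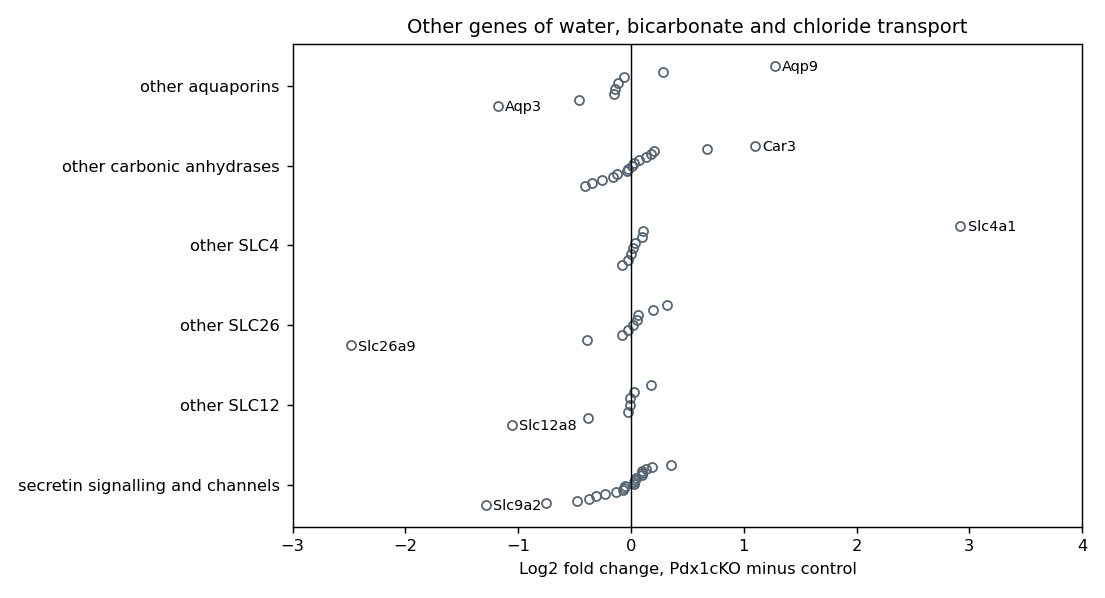
Log2 fold change, Pdx1cKO minus control, of every measured gene in 6 lists of water, bicarbonate and chloride transport genes (circles, 1 per gene), with genes beyond 0.9 in either direction named. Most genes lie close to 0, and Slc4a1 at 2.92 and Slc26a9 at -2.48 lie farthest out.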

How the data were processed

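RNA of 3 Pdx1cKO and 2 control pancreata was hybridised by the authors to 1 array per mouse, scanned and analysed in GeneSpring GX. They deposited linear intensities of 28853 probe sets. How background, scaling and the summary of probes were handled is not given in the sources used here. Array medians of 61.0 to 61.9 show that the values had been scaled before they were deposited, which removes any difference in total RNA, and exact ties between arrays, present in 67.7% of probe sets, narrow the spread. Groups and replicate numbers come from the sample titles.

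Log2 was taken with no pseudocount. The 21789 probe sets with 1 gene symbol in the platform's annotation were averaged into 19938 genes (999 have more than 1). All 10 members matched RefSeq of GRCm38.p6 by Entrez gene. The groups were compared by limma 3.58.1 in R 4.3.3 (lmFit, eBayes, Benjamini-Hochberg over all genes, threshold 0.05). Its p-values set the group difference against the spread between these mice within the groups, taken as equal in both. The array weights, used only as an alternative, were 0.21 for each control and 1.72 to 4.36 for the Pdx1cKO mice. The step was run on simulated independent normal values without exact ties, which checked the size of its estimates and not the calls. Tables were made in pandas 2.3.3 under Python 3.11.15. The number of mice limits the precision.

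The members and lists were chosen with earlier results of these data known. Named were all 10 members, the 3 genes with the smallest p in each transport list, the 3 nearest profiles of Aqp12, Aqp8 and Cftr, Pdx1, and markers beside a member. Marker lists cover acinar, duct, islet, endothelial, erythroid, liver, stomach, intestinal, granulocyte and mesothelial genes. Alternatives were quantile normalization, median scaling, 2 filters on dim genes, the brightest probe set, array weights, eBayes with a robust trend, the methods' t-test (Student), a replicate block and leaving out each mouse. Scan dates were not used here.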

Additional observations from a re-analysis of the deposited data

How the results depend on the processing

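The log2 fold changes of Aqp12, Aqp5, Cftr, Slc4a4, Slc26a6 and Slc26a3 were negative under each alternative that tested them, but Cftr and Slc26a3 without control 2 (-0.007 and -0.035) and Slc26a6 without control 1 (-0.013) were close to 0. The filter above the median level left out Aqp5, Cftr, Slc26a6 and Slc26a3, and that above the lower quartile left out Cftr and Slc26a3. Over the left-out mice the log2 fold change was -4.18 to -1.99 for Aqp12, -0.63 to 1.26 for Aqp8, -0.13 to 0.73 for Aqp1, -1.45 to 3.27 for Car2 and -0.30 to 0.24 for Slc12a2. Among the genes near Aqp8 it was -0.75 to 1.21 for Ces1d, -0.27 to 1.30 for Cyp2c23 and -0.38 to 1.13 for Errfi1. Aqp8, Aqp1, Slc12a2, Ces1d and Errfi1 turned sign without control 2, Car2 without control 1, and Aqp8, Slc12a2 (0.02), Ces1d (-0.16) and Cyp2c23 without Pdx1cKO mouse 2, where Aqp8 was at -0.52. Without control 1 and without control 2, Pla2g1b was at -1.873 and -4.297, Try4 at -2.14 and -3.985 and Pdx1 at -1.278 and -0.547.

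The median of the acinar pair was -2.40 to -0.37 over the left-out mice and that of the duct members -0.21 to -0.084. The duct median was 0.13 among genes above the median level, where 4 of the 8 remained. Over all genes, leaving out a mouse gave 0 to 2072 lower and 0 to 1604 higher genes, all from leaving out a control, and 638 to 3694 lower and 711 to 2958 higher at an unadjusted p. By the methods' t-test 7 genes were lower and 3 higher after adjustment. At an unadjusted p there were 501 lower genes above the median level, where fewer genes were tested, 391 lower and 241 higher with array weights, and 605 lower with the replicate block. Other causes were not tested. By the labels, mice with the same number share only that number, and the difference between mice 1 and 2 correlated at 0.015 between the groups over genes. The replicate block left 0 genes past the threshold, the 10 members included. With 2 controls, and with Cftr, Slc26a3 and Slc26a6 near or under the level of the dimmer probe sets, small changes of these genes could not be measured.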
